A study of Mus musculus with 12 samples.

Results

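The Schlafen genes are a family of growth-regulatory and antiviral genes that lie side by side in the mouse genome. The 6 genes described here, Slfn1, Slfn2, Slfn3, Slfn5, Slfn8 and Slfn9, are 6 of the 23284 gene symbols measured, and 10 of those symbols begin with Slfn. They were chosen by the RNA level of Slfn2, which was lower in cells given Zmiz1, so their values in the comparisons of added Zmiz1 are a description and were not tested. The comparisons of the Notch1 mutant were not used to choose them and were tested, although they share libraries with the comparisons that were used.

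The cells were 8946, a mouse T-cell acute lymphoblastic leukemia line known from work on tumours driven by a MYC transgene, whose activity was not measured here. Each culture received a pair of retroviruses, and the cells carrying both were sorted for the markers GFP and NGFR. The combined group carried the Notch1 mutant L1601P (L1601P-IRES-GFP) and Zmiz1 (Zmiz1-IRES-NGFR). The Zmiz1-titled group carried the empty GFP vector MigR1 and Zmiz1, and the Notch1-titled group carried L1601P and the empty NGFR vector. The control group carried both empty vectors, so all 4 groups had been transduced, sorted and made to express both markers. L1601P lies in the heterodimerization domain of Notch1, where mutations set off cleavage of the receptor without its ligand, and Zmiz1 is a transcriptional coactivator related to the PIAS proteins. RNA of each group was sequenced in 3 libraries, 12 in all, from a single cell line. The labels do not say whether the 3 libraries came from separate cultures, so p-values measure only the spread between these libraries, which may be technical.

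The vector pairs above follow the sample titles and the column headers. The cell line label contradicts them for the groups with 1 gene-bearing vector, placing L1601P beside the empty NGFR vector for the Zmiz1-titled libraries and MigR1 beside Zmiz1 for the Notch1-titled libraries. The transcripts carried by the vectors went with the titles. Zmiz1 averaged 49.3 ± 1.66 FPKM in combined and 70.8 ± 3.39 FPKM in Zmiz1-titled libraries, against 0.212 ± 0.0153 FPKM in Notch1-titled and 0.176 ± 0.00489 FPKM in control libraries (SD, n = 3 each; FPKM is fragments mapped to a gene, scaled to its transcript length and to the size of the library). Notch1 averaged 35.6 ± 1.93 FPKM in combined and 32.1 ± 10.1 FPKM in Notch1-titled libraries, against 2.1 ± 0.218 FPKM in Zmiz1-titled and 1.89 ± 0.0863 FPKM in control libraries. Ngfr reads, 5.64 ± 0.0183 FPKM in combined and 7.43 ± 0.248 FPKM in Zmiz1-titled libraries against 72.9 ± 10.1 FPKM in Notch1-titled and 85.2 ± 3.25 FPKM in control libraries, also split by the titled Zmiz1 vector.

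All 11 T cell markers examined were detected, with summed levels of 5115 to 6364 FPKM per library. Lyz2, Csf1r, Cd14, Mpo and Fcgr3 of the 6 myeloid markers had mean levels under 1 FPKM, and Lyz2 was above 0 in a single library (0.0669 FPKM, Zmiz1-titled replicate 1). Itgam was the exception, and it moved with the Notch1 mutant: the myeloid sum was 59.5 to 61.9 FPKM in combined and 51.3 to 58.4 FPKM in Notch1-titled libraries, against 91.7 to 100.7 FPKM in Zmiz1-titled and 98.1 to 102.2 FPKM in control libraries. Itgam fell by 0.83 on the log2 scale for Notch1-titled against control and by 0.67 for combined against Zmiz1-titled (limma, adjusted p = 2.83e-05 and 0.000119). No B cell (5), NK cell (4), fibroblast (4) or erythroid (4) marker reached a mean of 1 FPKM, and 2 of each of these lists were at 0 throughout. Total FPKM per library ranged from 549098 to 606908. Read counts were not used here, and steps between the low values of 2327 genes put the relative depth at 0.805 (Zmiz1-titled replicate 2) to 1.22 (Notch1-titled replicate 1). A pair of libraries stood apart by their mean correlation to the rest, Zmiz1-titled replicate 2 at 0.942 and Notch1-titled replicate 3 at 0.949, where the highest value was 0.957. Notch1-titled replicate 3 also had the highest total FPKM and the lowest Notch1 level of its group, 22.1 FPKM against 32.0 and 42.2 FPKM. Because the RNA is bulk, fewer cells expressing a gene and less of its RNA per cell cannot be told apart.

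Schlafen proteins share an N-terminal core that binds and, in several members, cuts RNA, and the family is known for restraining cell growth, translation and virus replication. The short forms, Slfn1 and Slfn2, consist of little more than this core, Slfn3 and Slfn4 are of middle length, and Slfn5, Slfn8 and Slfn9 carry a C-terminal helicase-like domain. In mouse T cells Slfn2 is needed to hold resting cells in quiescence and protects transfer RNAs from cleavage during activation, and several members are induced by type I interferon.

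The 6 genes lie within 335.4 kb on mouse chromosome 11 together with Slfn4, Slfn10-ps and Slfn14 (GRCm38, GENCODE annotation; chr11:82951349-83286726). In order along the plus strand come Slfn5 (82951349 to 82964840, plus strand, 6 exons in the longest transcript), Slfn9 (82978390 to 82991830, minus, 5 exons), Slfn8 (83002158 to 83020810, minus, 6 exons), the pseudogene Slfn10-ps (83028130 to 83040042, minus), Slfn2 (83065112 to 83070678, plus, 2 exons), Slfn1 (83116849 to 83122670, plus, 2 exons), Slfn4 (83175186 to 83190216, plus), Slfn3 (83191330 to 83215154, plus, 3 exons) and Slfn14 (83275110 to 83286726, minus). The coding sequences follow the protein classes: 1011 bases for Slfn1 and 1134 for Slfn2, 1920 for Slfn3, and 2652 to 2730 for Slfn5, Slfn8 and Slfn9. Slfn8 and Slfn9 were identical at 92.7% of 2730 aligned coding bases and Slfn3 and Slfn4 at 92.3% of 1785, while Slfn1 and Slfn2 shared 71.3% and Slfn1 and Slfn5, the least alike pair, 57.6%.

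**Figure D1:**
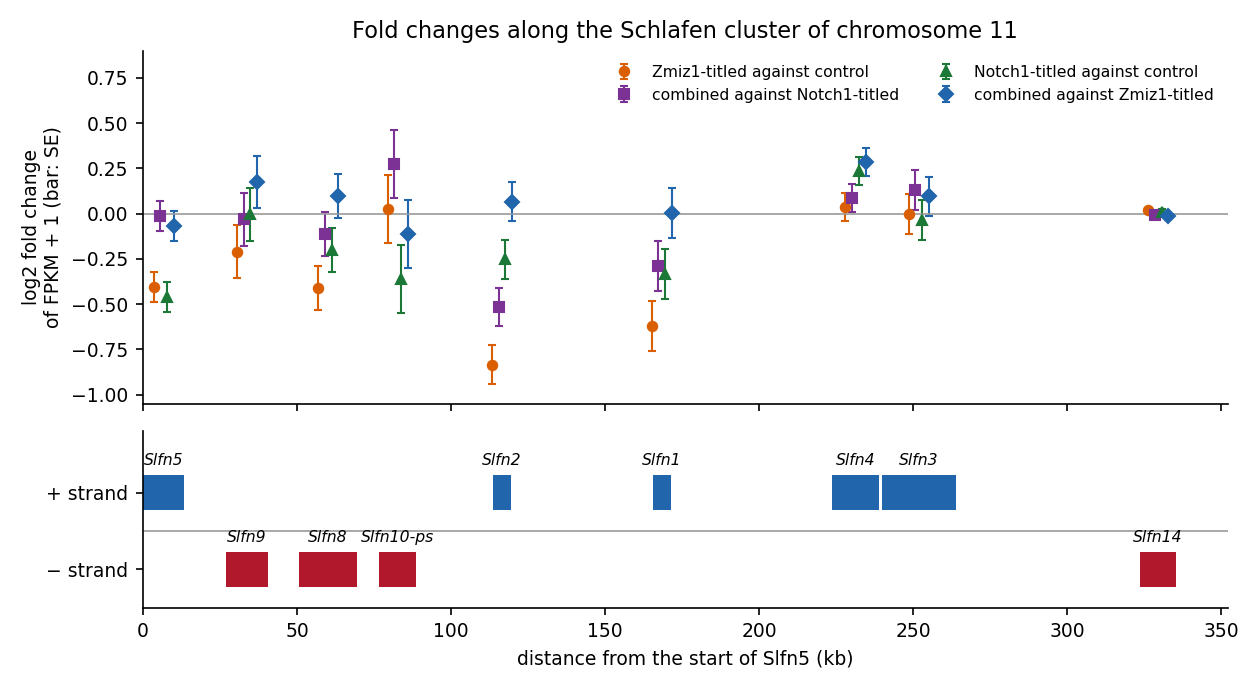
Map of the Schlafen genes on mouse chromosome 11 (distance in kb from the start of Slfn5, plus and minus strands drawn apart). Above it stands the log2 fold change (FPKM + 1) of each gene with its standard error. The 4 comparisons are added Zmiz1 and the added Notch1 mutant, each without and with the other vector. The Slfn2 points for added Zmiz1, used to choose the genes, lie at -0.835 and -0.516.

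Near-identical copies limit how surely the reads of each gene were assigned. Of all stretches of 50 bases in the longest protein-coding transcript (GENCODE), the share also present in another gene was 0.606% for Slfn1, 4.27% for Slfn2 (all with Slfn4), 11.8% for Slfn5, 11.9% for Slfn9, 15.4% for Slfn8 and 21.8% for Slfn3. Slfn8 shared most with Slfn10-ps (10.7%) and Slfn9 (9.82%), and Slfn3 with Slfn4 (13.1%). Slfn5 shared stretches with 635 genes, the largest share (7.88%) with the antisense gene Slfn5os. Of the genes outside the 6, Slfn4 shared 11.6% of its stretches, most with Slfn3, and Slfn10-ps 19.7%, most with Slfn9. Levels of Slfn3, Slfn4, Slfn5, Slfn8, Slfn9 and Slfn10-ps are therefore uncertain to the extent that reads could be split between genes. Slfn5 overlaps an antisense gene, Slfn5os, listed as 1700003F17Rik at 0.0800 to 0.786 FPKM, and Slfn2 overlaps the antisense gene Gm20234, not analysed here. The TruSeq mRNA v2 kit does not mark strand, so reads of each gene and its antisense partner cannot be told apart.

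The start regions of Slfn2 and Slfn5 are shown because the level of Slfn2 led to the choice of these genes and Slfn5 is the member that passed a test. Each sequence runs 5′ to 3′ along the gene, from 250 bases before the RefSeq start site to 50 bases after it (GRCm38.p6). Capitals mark TGGGAA, the core bound by RBPJ, the DNA-binding partner of Notch, and ACTTCCT, the reverse complement of the ETS core AGGAAGT, in Slfn2, and in Slfn5 a match to the core of the interferon response element, GAAA followed by any 2 bases and GAAA again.
Slfn2 (chr11:83064862-83065161, plus strand): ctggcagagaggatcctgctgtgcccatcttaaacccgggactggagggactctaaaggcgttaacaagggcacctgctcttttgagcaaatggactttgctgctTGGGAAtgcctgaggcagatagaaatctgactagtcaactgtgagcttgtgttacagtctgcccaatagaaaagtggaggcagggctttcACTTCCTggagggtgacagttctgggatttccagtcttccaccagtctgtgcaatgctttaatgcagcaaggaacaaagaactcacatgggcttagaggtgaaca
Slfn5 (chr11:82951852-82952151, plus strand): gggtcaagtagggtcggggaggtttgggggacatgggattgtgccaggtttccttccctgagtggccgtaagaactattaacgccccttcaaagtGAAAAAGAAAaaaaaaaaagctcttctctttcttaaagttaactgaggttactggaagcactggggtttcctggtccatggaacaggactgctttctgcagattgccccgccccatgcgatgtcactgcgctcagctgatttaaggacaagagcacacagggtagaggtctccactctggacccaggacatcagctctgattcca

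On both strands, 4 letter patterns were searched in the 300 bases of each Schlafen start region, patterns that were picked with these sequences in view. The ETS core AGGAAGT was found in Slfn1, Slfn2, Slfn3 (2 matches) and Slfn4, and in 9.35% of the 32851 start regions of the table. The interferon core was found in Slfn5, Slfn8 and Slfn9 and in 3.44% of all start regions. The RBPJ core TGGGAA was found in Slfn2 and Slfn9, where it overlaps the interferon match, and in 25.6% of all. The STAT pattern TTCNNNGAA was found in no Schlafen start region and in 8.3% of all. These are matches of letters and not measured sites, and a missing match says only that the letters are not in this window. The windows around some of the matches are given side by side. In the windows of Slfn2, Slfn1 and Slfn3, capitals mark the reversed ETS core, which ends 49, 68 and 36 bases before the start site.
Slfn2 (chr11:83065032-83065088, plus strand): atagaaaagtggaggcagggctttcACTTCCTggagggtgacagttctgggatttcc
Slfn1 (chr11:83116721-83116777, plus strand): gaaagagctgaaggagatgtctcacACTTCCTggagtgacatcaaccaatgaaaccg
Slfn3 (chr11:83191263-83191319, plus strand): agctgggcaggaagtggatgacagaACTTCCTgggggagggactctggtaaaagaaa
In Slfn8 and Slfn9 capitals mark the interferon core on the reverse strand. Slfn8 has 2 RefSeq start regions, chr11:83020673-83020972 and chr11:83020761-83021060, and the match lies in both. The first of these and the Slfn9 start region were identical at 87.8% of 205 aligned bases.
Slfn8 (chr11:83020824-83020883, minus strand): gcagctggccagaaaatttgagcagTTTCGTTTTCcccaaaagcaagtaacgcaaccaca
Slfn9 (chr11:82991841-82991900, minus strand): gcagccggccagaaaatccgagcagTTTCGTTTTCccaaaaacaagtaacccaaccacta

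Among the short forms, Slfn2 was the most abundant. Its level was 14.7, 17.5 and 16.8 FPKM in the combined libraries (replicates 1 to 3), 16.8, 12.9 and 17.2 FPKM in the Zmiz1-titled libraries, 22.2, 24.2 and 24.9 FPKM in the Notch1-titled libraries, and 26.4, 30.5 and 28.7 FPKM in the control libraries. Every library titled with Zmiz1, alone or combined, lay below every library without it, and the ranges of the 2 groups with Zmiz1 overlapped. Group means were 16.3 ± 1.48, 15.6 ± 2.35, 23.8 ± 1.39 and 28.5 ± 2.04 FPKM in combined, Zmiz1-titled, Notch1-titled and control libraries (SD, n = 3 each). The Zmiz1-titled mean was 0.548 of the control mean, a log2 fold change of -0.83 ± 0.11 (SE; all fold changes are on the log2(FPKM + 1) scale). With the Notch1 mutant present, the combined level set against the Notch1-titled one gave -0.52 ± 0.11 (SE). The first of these differences was larger by 0.32 ± 0.15 (SE) on the log2 scale. Without the 2 libraries that stood apart, the control-based value was -0.71. These values chose the genes and are given without a test.

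The Notch1 mutant alone left Slfn2 levels in a range of their own between the other groups. All 3 Notch1-titled libraries lay below all 3 control libraries, by -0.25 ± 0.11 on the log2 scale (SE; 95% interval -0.49 to -0.02), and this difference did not pass the threshold (limma, adjusted p = 0.230; threshold 0.05). In cells that already carried Zmiz1, adding the Notch1 mutant gave overlapping ranges and a difference of 0.07 ± 0.11 (interval -0.17 to 0.30, adjusted p = 0.812, limma). The sign of this last value rests on 1 library: without Zmiz1-titled replicate 2, which had the lowest Slfn2 level of all 12, it was -0.06.

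Slfn1, which gave the family its founding growth-arrest phenotype when over-expressed in mouse thymocytes, was the least abundant member. Its level was 0.424, 0.274 and 0.408 FPKM in combined, 0.608, 0.0925 and 0.447 FPKM in Zmiz1-titled, 0.544, 0.686 and 0.780 FPKM in Notch1-titled, and 1.44, 0.948 and 0.944 FPKM in control libraries. The control libraries were all above the other 9, and the lowest value came from Zmiz1-titled replicate 2, the shallowest library. With a mean of 0.633 FPKM over the 12 libraries Slfn1 was under the filter of 1 FPKM that the other 5 genes passed, so it was taken from a fit without that filter. The Notch1-titled level was below control by -0.33 ± 0.14 (SE; interval -0.64 to -0.02), which did not pass the threshold (limma, adjusted p = 0.285). Combined and Zmiz1-titled libraries differed by 0.00 (adjusted p = 1.00, limma), a value whose sign changed with the scaling and with single libraries. Against control the Zmiz1-titled level gave -0.62 ± 0.14 and against Notch1-titled the combined level -0.29 ± 0.14, described without a test. The pseudocount of 1 compresses such low values: with 0.01 FPKM added in its place these 2 values were -1.84 and -0.86, the Notch1-titled value against control was -0.71 (limma, adjusted p = 0.632) and the combined value against Zmiz1-titled 0.28 (adjusted p = 0.887).

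**Figure D2:**
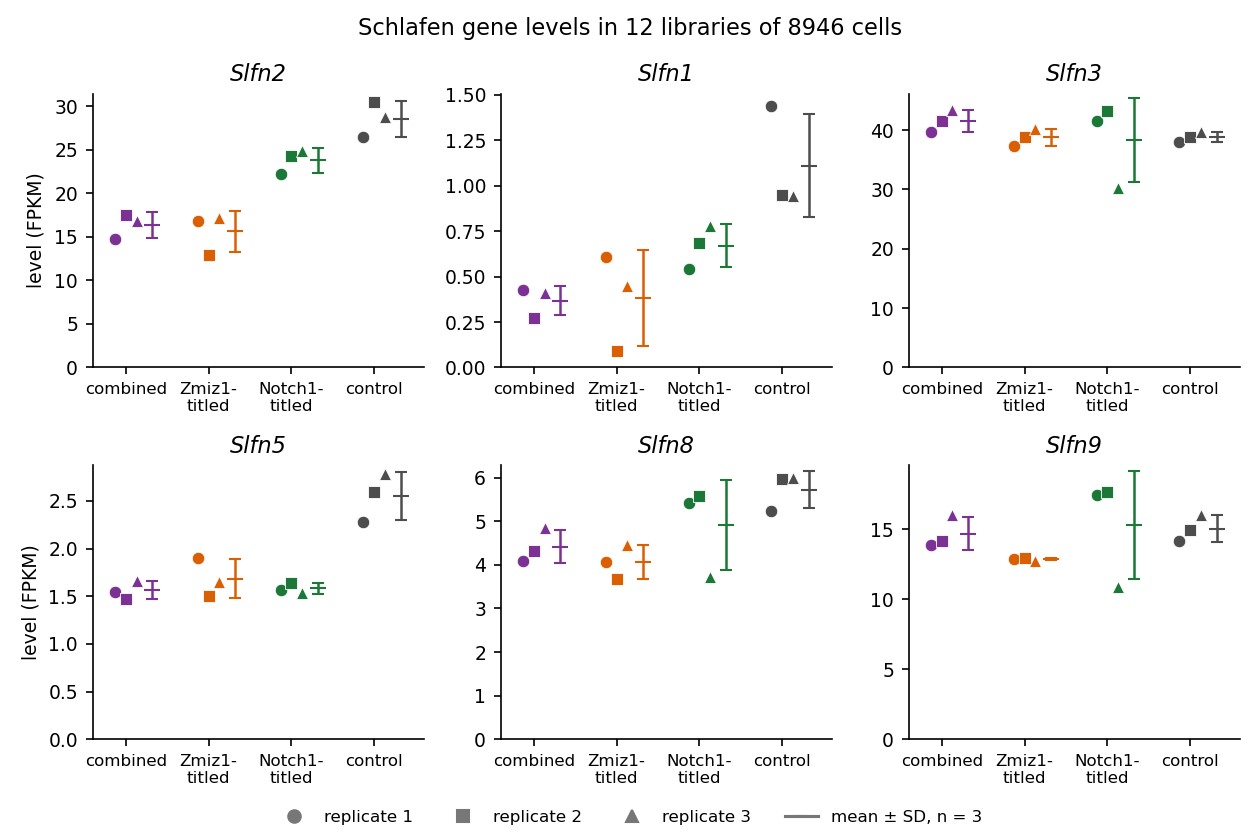
Level of each of the 6 Schlafen genes (FPKM, axes from 0) in the 12 libraries, with the groups combined, Zmiz1-titled, Notch1-titled and control from left to right. Symbols are single libraries by replicate number, bars are the mean ± SD of 3 libraries, and the control libraries of Slfn2, Slfn1 and Slfn5 lie above all libraries of the other groups.

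Slfn3, of middle length and reported in rat gut epithelium as a driver of differentiation, was the most abundant member, with group means between 38.3 and 41.5 FPKM. It measured 39.6, 41.5 and 43.4 FPKM in combined, 37.3, 38.8 and 40.2 FPKM in Zmiz1-titled, 41.6, 43.2 and 30.2 FPKM in Notch1-titled, and 38.0, 38.9 and 39.6 FPKM in control libraries. Apart from Notch1-titled replicate 3, at 30.2 FPKM, the other 11 libraries lay between 37.3 and 43.4 FPKM. The difference was -0.04 ± 0.11 for Notch1-titled against control (interval -0.28 to 0.21, adjusted p = 0.916) and 0.10 ± 0.11 for combined against Zmiz1-titled (adjusted p = 0.724, limma), neither past the threshold. Without Notch1-titled replicate 3 the first value was 0.12 (adjusted p = 0.345). The Zmiz1-titled value against control was -0.00 and the combined value against Notch1-titled 0.13, or -0.03 without Notch1-titled replicate 3.

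Slfn5 was the member called in a test. This long form is induced by type I interferon in human cells, where it is known to repress transcription of interferon-responsive genes. It had 1.55, 1.47 and 1.66 FPKM in combined, 1.90, 1.5 and 1.65 FPKM in Zmiz1-titled, 1.57, 1.64 and 1.54 FPKM in Notch1-titled, and 2.28, 2.59 and 2.79 FPKM in control libraries. All 9 libraries with a gene-bearing vector lay at 1.90 FPKM or below and all control libraries at 2.28 FPKM or above, while the 3 groups with such a vector overlapped one another. Slfn5 fell in the Notch1-titled libraries by 0.46 ± 0.08 on the log2 scale relative to control (SE; interval -0.64 to -0.28; a ratio of group means of 0.619; limma, adjusted p = 0.00881). The call held without any 1 library (adjusted p 0.00383 to 0.0484) and at pseudocounts of 0.1 and 0.01. On top of Zmiz1, the Notch1 mutant gave -0.07 ± 0.08 (interval -0.25 to 0.12, adjusted p = 0.746, limma), not past the threshold. As a description, the Zmiz1-titled level stood at 0.66 of control, or -0.41 ± 0.08 on the log2 scale, while combined stood at -0.01 against Notch1-titled. The Slfn5 values for the single vectors, -0.46 and -0.41, lay close to the value for both together, -0.47 against control, all 3 measured against the same control libraries.

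Slfn8 and Slfn9, the near-identical long pair, had lower levels in Notch1-titled replicate 3 than in the other libraries of that group. Slfn8 measured 4.09, 4.32 and 4.84 FPKM in combined, 4.07, 3.68 and 4.46 FPKM in Zmiz1-titled, 5.43, 5.58 and 3.73 FPKM in Notch1-titled, and 5.23, 5.98 and 5.99 FPKM in control libraries. The control libraries lay above both groups with Zmiz1 and overlapped the Notch1-titled libraries. For Slfn8 the Notch1-titled level differed from control by -0.20 ± 0.12 (interval -0.47 to 0.07, adjusted p = 0.432) and the combined level from Zmiz1-titled by 0.10 ± 0.12 (adjusted p = 0.749, limma), neither past the threshold. Without Notch1-titled replicate 3 the first value was -0.05. The described values were -0.41 ± 0.12 for Zmiz1-titled and -0.31 ± 0.12 for combined, both against control, and -0.11 for combined against Notch1-titled, which was -0.27 without Notch1-titled replicate 3 and -0.03 without Notch1-titled replicate 2.

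Slfn9 measured 13.8, 14.2 and 16.0 FPKM in combined, 12.9, 12.9 and 12.8 FPKM in Zmiz1-titled, 17.4, 17.6 and 10.9 FPKM in Notch1-titled, and 14.2, 14.9 and 16.0 FPKM in control libraries. The Zmiz1-titled libraries lay below all combined and all control libraries, and Notch1-titled replicate 3 held the lowest value of all. Neither test passed the threshold, with -0.00 ± 0.15 for Notch1-titled against control (adjusted p = 0.998) and 0.18 ± 0.15 for combined against Zmiz1-titled (interval -0.15 to 0.50, adjusted p = 0.604, limma). The first value had the other sign as a ratio of means, 1.02, and without Notch1-titled replicate 3 it was 0.21 (adjusted p = 0.174). The described values were -0.21 ± 0.15 for Zmiz1-titled against control and -0.03 for combined against Notch1-titled. That last value was -0.24 without Notch1-titled replicate 3 and 0.08 without Notch1-titled replicate 2.

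**Figure D3:**
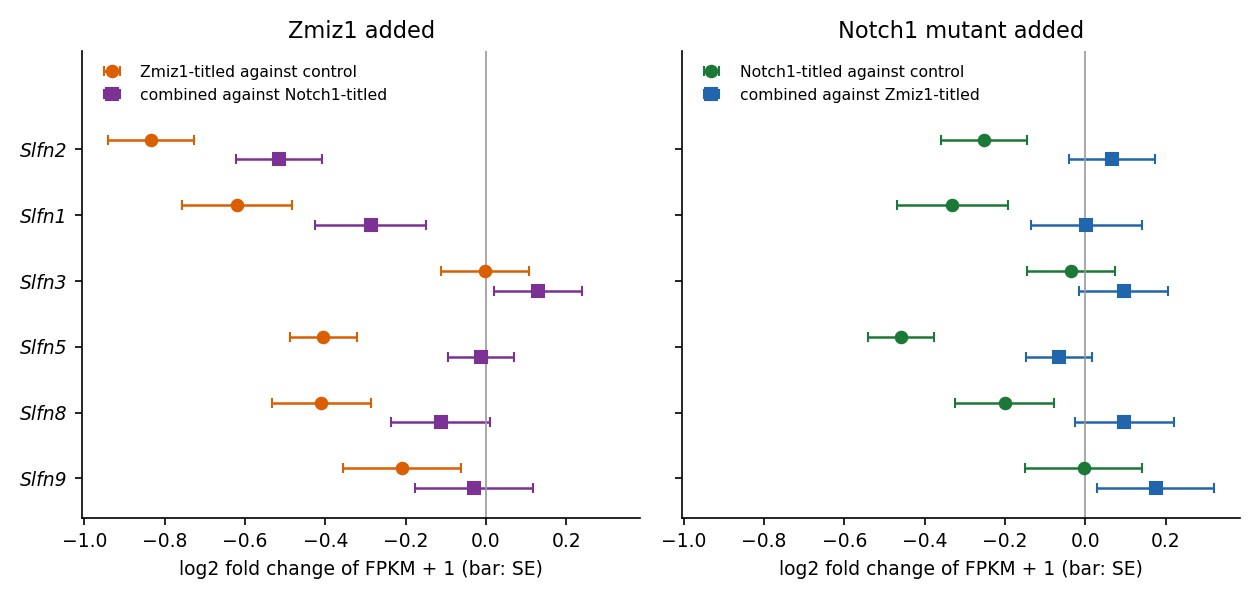
Log2 fold change (FPKM + 1) of the 6 genes with its standard error, for added Zmiz1 on the left and the added Notch1 mutant on the right, each without and with the other vector. The Slfn2 points on the left lie at -0.83 and -0.52 and were used to choose the genes; on the right Slfn5 in Notch1-titled against control, at -0.46, is the point that passed the test.

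Read over the 6 genes, the Notch1 mutant without Zmiz1 gave no rise, 1 fall (Slfn5) and 5 genes not called (limma; 3 of 6 had an unadjusted p under 0.05, beside 18.8% of all genes tested), against 5.49% of the 10152 genes tested in either direction and 2.30% that fell (3.56% of all genes in the fit without a filter that holds Slfn1). The 233 genes that fell stood against 324 that rose, or 271 rose and 300 fell under quantile normalization. The groups did not overlap for 3 of the 6 (Slfn1, Slfn2 and Slfn5, all lower), against 10.3% of the 10152 genes tested. Slfn1, under the filter, is not among those genes, here and for the other shares without overlap or at an unadjusted p. The median log2 fold change was -0.23 over the 6 and 0.03 over all genes. In cells carrying Zmiz1, 0 of the 6 were called (limma; 0 at an unadjusted p under 0.05), against 3.86% of all genes (392, and 1604 at an unadjusted p under 0.05; 2.55% without the filter), and the median was 0.08 against 0.02 over all genes. Slfn9 alone was free of overlap there, on the higher side, against 13.5% of all genes tested. With 3 libraries in each group the smallest p of an exact two-sided permutation test is 0.1, so these calls rest on the variance limma shares across genes.

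In the comparisons that chose the genes, 5 of the 6 (all but Slfn3) were lower without overlap in Zmiz1-titled than in control libraries. Beside this stood 9.12% of all genes tested, which do not hold Slfn1. Slfn1 and Slfn2 were lower without overlap in combined than in Notch1-titled libraries, beside 7.81%. The medians over the 6 were -0.41 and -0.07, beside 0.00 and -0.00 over all genes. Against control, the combined libraries were lower without overlap for Slfn1, Slfn2, Slfn5 and Slfn8, beside 13.5% of all genes tested, with a median of -0.39. The difference between the Zmiz1 values with and without the Notch1 mutant was 0.13 for Slfn3, 0.18 for Slfn9, 0.30 for Slfn8, 0.32 for Slfn2, 0.33 for Slfn1 and 0.39 ± 0.12 (SE) for Slfn5, and is a description. Without Notch1-titled replicate 3 it was -0.03 for Slfn3, -0.04 for Slfn9 and 0.14 for Slfn8. In the same setting Slfn2, Slfn1 and Slfn5 had 0.35, 0.38 and 0.38. Over all single libraries left out, the value ranged from 0.20 to 0.39 for Slfn2, 0.17 to 0.45 for Slfn1 and 0.34 to 0.45 for Slfn5. With Zmiz1-titled replicate 2 and Notch1-titled replicate 3 both out, Slfn2, Slfn1 and Slfn5 had 0.23, 0.22 and 0.33.

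The make-up of the family RNA shifted with these levels. The levels of all 10 Slfn symbols, not of the 6 genes alone, were summed in each library. They summed to 82.8 ± 4.56 FPKM in the combined and 77.1 ± 3.35 FPKM in the Zmiz1-titled libraries, against 87.9 ± 12 FPKM in the Notch1-titled and 95.4 ± 3.83 FPKM in the control ones (SD, n = 3 each). Of this sum, the share of Slfn2 was 19.7% in the combined libraries and 20.2% in the Zmiz1-titled ones, against 27.5% in the Notch1-titled and 29.9% in the control ones. The share of Slfn3 was 50.2% in the combined libraries and 50.3% in the Zmiz1-titled ones, against 43.4% in the Notch1-titled and 40.8% in the control ones. Ratios of 2 genes within a library do not depend on how libraries were scaled to each other. The ratio of Slfn2 to Slfn3 was 0.371, 0.422 and 0.387 in combined and 0.451, 0.333 and 0.427 in Zmiz1-titled libraries, against 0.534, 0.561 and 0.824 in Notch1-titled and 0.695, 0.783 and 0.725 in control libraries. The 6 libraries with Zmiz1 lay below the 6 without it, and Notch1-titled replicate 3, where Slfn3 was low, had the highest ratio. Shares and ratios of Slfn2 contain the Slfn2 levels that chose the genes, so their split by Zmiz1 restates that choice and is a description. The ratio of Slfn5 to Slfn3 was at least 0.0601 in the control libraries and at most 0.0510 in the other 9. The ratio of Slfn8 to Slfn9 was 0.369 to 0.40 in control libraries and 0.285 to 0.349 in the other 9, among them Notch1-titled replicate 3 (0.343), where both genes were low.

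**Figure D4:**
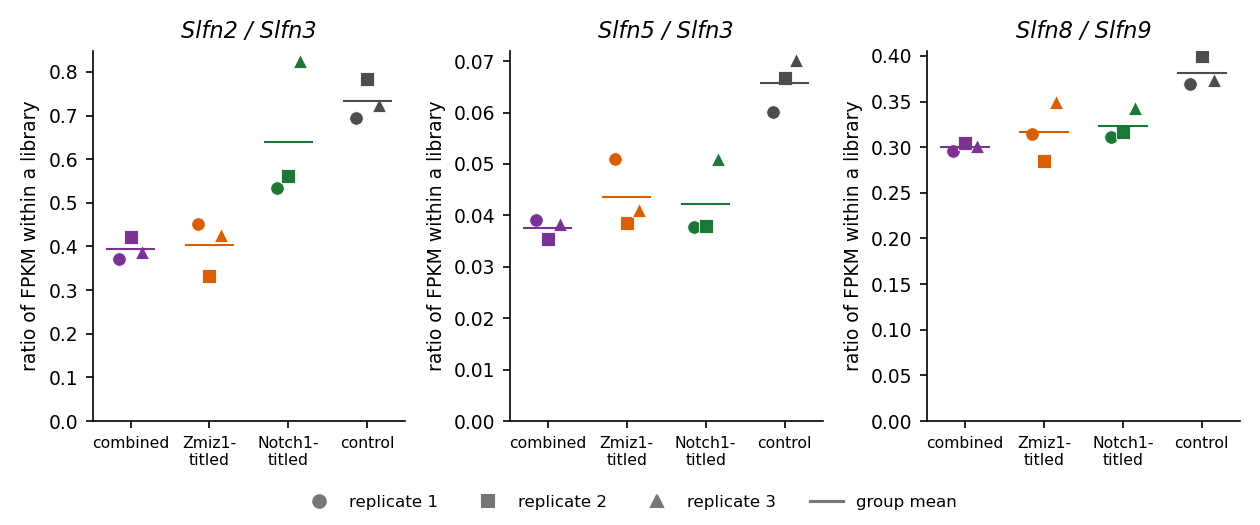
Ratio of the FPKM of Slfn2 to Slfn3, Slfn5 to Slfn3 and Slfn8 to Slfn9 within each of the 12 libraries (axes from 0; symbols by replicate, lines at group means). For Slfn2 to Slfn3 the combined and Zmiz1-titled libraries lie at 0.333 to 0.451, below all others, and for the other 2 ratios the control libraries lie highest. The Slfn2 levels within the first ratio were used to choose the genes.

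Of the other Schlafen symbols, Slfn4 and Slfn10-ps passed the filter. Both share sequence with members, so the limit on assigning reads given above applies to their levels too. Slfn4, an interferon-induced member known from myeloid cells of the mouse, had 1.88, 1.89 and 1.80 FPKM in combined, 1.31, 1.49 and 1.25 FPKM in Zmiz1-titled, 1.71, 1.78 and 1.59 FPKM in Notch1-titled, and 1.42, 1.13 and 1.32 FPKM in control libraries. All libraries with the Notch1 mutant lay above all libraries without it. Slfn4 rose in the combined libraries relative to control by 0.32 on the log2 scale (limma, adjusted p = 0.0340; 6.46% of all genes were called and 3.97% rose), a call that was lost without control replicates 2 or 3 or any 1 combined library (adjusted p up to 0.136). It did not pass for Notch1-titled against control (0.24, adjusted p = 0.120) or combined against Zmiz1-titled (0.28, adjusted p = 0.0789, and 0.0396 without Zmiz1-titled replicate 2). The summed myeloid markers, carried by Itgam, were lower in those same libraries, and their part in the Slfn4 levels was not tested. Slfn10-ps, the pseudogene beside Slfn8, was at 0.702 FPKM in Notch1-titled replicate 3 and at 1.92 to 2.59 FPKM in the other 11 libraries, the pattern of its neighbours Slfn8 and Slfn9 in that library; it was not called in either Notch1 comparison. Slfn14, listed as Slfn14-ps, was at 0.00752 to 0.0428 FPKM and the distant relative Slfnl1 on chromosome 4 at 0 to 0.0759 FPKM.

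The genes flanking the cluster were read beside it, and whether the region as a whole changed was not tested. Of the 7 flanking genes that passed the filter, 0 were called in any of the 4 comparisons (limma; at most 2 had an unadjusted p under 0.05 in one comparison). Over all genes tested, 5.49% and 3.86% were called for the Notch1 mutant without and with Zmiz1. For Zmiz1 without and with the Notch1 mutant these shares were 2.11% and 1.51%. In the same order, 4, 2, 7 and 2 of the 7 flanking genes had negative values. Medians of the 7 were -0.00 and 0.10 for the Notch1 mutant without and with Zmiz1, and -0.05 and 0.06 for Zmiz1 without and with the Notch1 mutant. Taf15, an RNA-binding factor of transcription, had the largest difference of the 7 within each Notch1 comparison, 0.37 for combined against Zmiz1-titled (adjusted p = 0.117, and 0.0491 without Zmiz1-titled replicate 3) and 0.24 for Notch1-titled against control (adjusted p = 0.292).

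Because several Schlafen genes are interferon-induced, 38 interferon response genes were read beside them, of which 20 passed the filter. None was called in any of the 4 comparisons by limma, with 0, 2, 7 and 2 genes at an unadjusted p under 0.05 for Notch1-titled against control, combined against Zmiz1-titled, Zmiz1-titled against control and combined against Notch1-titled. Over all genes the unadjusted shares in the same comparisons were 18.8%, 15.8%, 12.8% and 9.0%. Signs leaned one way where Zmiz1 was added: 18 of 20 values were negative for Zmiz1-titled against control (median -0.15, beside 0.00 over all genes) and 18 of 20 for combined against Notch1-titled (median -0.14, beside -0.00). With the Notch1 mutant 10 of 20 were negative without Zmiz1 (median 0.00) and 8 of 20 with it (median 0.04). The lean where Zmiz1 was added was not particular to this list. Of the 11 T cell markers, 8 were negative for Zmiz1-titled against control (median -0.12) and 10 for combined against Notch1-titled (median -0.14). Of the 18 quiescence genes described below, 9 were negative in each of these comparisons. Bst2, which tethers budding virus, averaged 18.6 FPKM in Zmiz1-titled and 27.0 FPKM in control libraries (-0.52, adjusted p = 0.0916), and the GTPase gene Igtp 14.8 FPKM in Zmiz1-titled and 21.0 FPKM in control libraries (-0.49, adjusted p = 0.0541). Each passed under some alternatives and missed under others, with adjusted p down to 0.0130 for Bst2 without Notch1-titled replicate 3 and 0.0270 for Igtp without Zmiz1-titled replicate 3.

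Genes of T cell quiescence, the process Slfn2 is known for, split by gene. Of 18 tested, 0 rose and 2 fell for Notch1-titled against control, 1 rose and 2 fell for combined against Zmiz1-titled, 1 rose and 1 fell for Zmiz1-titled against control, and 1 rose and 0 fell for combined against Notch1-titled (limma; 5, 7, 5 and 2 at an unadjusted p under 0.05). In the Zmiz1 comparisons 2.11% and 1.51% of all genes were called. Il7r, the survival cytokine receptor of resting T cells, fell with the Notch1 mutant, to 29.6 FPKM in Notch1-titled against 53.0 FPKM in control libraries (-0.82, adjusted p = 0.000171) and to 84.1 FPKM in combined against 129 FPKM in Zmiz1-titled libraries (-0.61, adjusted p = 0.00140). It rose with Zmiz1, by 1.26 for Zmiz1-titled against control and 1.48 for combined against Notch1-titled (adjusted p = 1.01e-05 and 3.01e-06, limma), while Slfn2 in the same libraries was lower. Ccr7, the homing receptor of naive T cells, fell in Notch1-titled (-0.58) and in Zmiz1-titled libraries (-0.68), each against the same control libraries (adjusted p = 0.000387 and 0.000299). Klf2, a transcription factor of quiescent T cells, was called as higher in combined than in Zmiz1-titled libraries (0.38, adjusted p = 0.0202) and Tob1, an antiproliferative gene, as lower (-0.58, adjusted p = 0.0328). Both calls were lost without single libraries, including each of combined replicates 2 and 3 (adjusted p up to 0.149).

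Slfn2 is known to shield transfer RNAs from cleavage, so genes that cut, modify or guard them were also read. Of 14 tested, 1 was called in 1 comparison: Nsun2, a methyltransferase that protects transfer RNAs, was higher in combined than in Zmiz1-titled libraries (22.1 against 18.7 FPKM; 0.23, adjusted p = 0.0380), and the call was lost without most single libraries, with an adjusted p of up to 0.164 (without combined replicate 3). None was called in the other 3 comparisons by limma, with 2 genes at an unadjusted p under 0.05 for Notch1-titled against control and 0 in both Zmiz1 comparisons. The RNA kinase gene Clp1 had the largest value for Notch1-titled against control (-0.26, adjusted p = 0.183, and 0.0135 without Zmiz1-titled replicate 2). Medians lay within 0.02 of 0 in all 4.

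T cell markers moved in part with the vectors. Rag2, of antigen receptor recombination, and the coreceptor gene Cd8a rose in Notch1-titled libraries relative to control (0.67 and 0.23, adjusted p = 0.0103 and 0.00918, limma), the first lost without control replicate 2 (adjusted p = 0.0524) and the second under quantile normalization (0.0809) and with only the compared groups fitted (0.0833). Lck and Cd3d, of T cell receptor signalling, fell in Zmiz1-titled libraries relative to control (-0.35 and -0.31, adjusted p = 0.0274 and 0.0366, limma), calls lost without several single libraries (adjusted p up to 0.176). Of the 11, 0 were called for combined against Zmiz1-titled and 0 for combined against Notch1-titled (limma; 3 and 4 at an unadjusted p under 0.05). The part of these markers in the Schlafen levels was not tested.

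Across the 12 libraries, which are 4 groups of 3, the genes most like Slfn2 were ranked by Pearson r of log2(FPKM + 1) among 10151 genes, as a description. The highest were Cd7 (r = 0.971), a surface protein of T and NK cells, Pgcp (0.967), Itgb4 (0.957), an integrin subunit, Tapbp (0.955), which loads peptide onto MHC class I, Kcnh2 (0.954), a potassium channel, Aldh7a1 (0.953), Ms4a6c (0.949) and Cyth3 (0.945). Cd7 had means of 28.8 FPKM in the combined and 25.5 FPKM in the Zmiz1-titled libraries, against 38.2 FPKM in the Notch1-titled and 46.6 FPKM in the control ones, the same order of groups as Slfn2. The lowest were Slc35b4 (-0.982), a nucleotide sugar transporter, Dact1 (-0.979), a regulator of Wnt signalling, Ahi1 (-0.938) and the cohesin subunit gene Rad21 (-0.934). Within the family the most like Slfn2 was the other short form, Slfn1, with r of 0.860; it was under the filter and so was not ranked, and 90 of the 10151 genes had a higher r. The others had r of 0.746 for Slfn8 (rank 307), 0.703 for Slfn5, 0.294 for Slfn9, -0.156 for Slfn10-ps, -0.207 for Slfn3 and -0.375 for Slfn4.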

How the data were processed

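The authors deposited FPKM per gene symbol, 1 file for each of the 12 libraries. The submitters' processing notes name the build mm10, Cuffdiff (2.1.1) and Cufflinks, the aligners TopHat2 (2.0.9) and Bowtie2 (2.1.0.0) and, for read quality, FastQC (0.10.0), with no settings; the annotation and any scaling inside these tools are not given in the sources used here. The deposited FPKM were not rescaled and were analysed as log2(FPKM + 1), which understates changes of low genes. Tests covered genes averaging 1 FPKM or more over all libraries (10152 of 23284; 6449 were at 0 throughout). Group means were fitted over all 12 libraries in limma 3.58.1 under R 4.3.3, with a variance trend, two-sided tests and Benjamini-Hochberg adjustment over all genes tested, with a threshold of 0.05 ("called", "rose", "fell"). The fit was tested on simulated data. Slfn1, under the filter, was taken from a fit of all 16835 genes above 0. The cause of differences between libraries, such as depth, was not tested. Members and gene lists were chosen with earlier results of these data known; the lists hold flanking genes, interferon response, T cell quiescence, transfer RNA cleavage and protection, and cell type markers. Named list genes are up to 4 called with the largest change per comparison, or up to 2 where none was called; for likeness to Slfn2, the 8 highest and 4 lowest, without predicted genes. Positions come from GENCODE M21 and start regions from RefSeq (GRCm38.p6), matched by symbol with Python 3.11.15 and Biopython 1.88; coordinates are 1-based. Same-numbered libraries were not treated as paired, and the alternatives tried are listed in the closing section.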

Additional observations from a re-analysis of the deposited data

How the results depend on the processing

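Alternatives were pseudocounts of 0.1 and 0.01 FPKM, no filter or a filter of 5 FPKM, median ratio scaling, quantile normalization, a replicate block, only the groups compared, robust variances and each library left out. Leaving out Zmiz1-titled replicate 2 and Notch1-titled replicate 3 together was chosen after seeing the data. The depth in reads is unknown, so no counting interval could be given, and Slfn1, under 1 FPKM, is the least precise member. Slfn5 kept its fall for Notch1-titled against control under every alternative in which it was tested (-0.68 to -0.41); at a filter of 5 FPKM it was not tested, and the members that fell numbered 0. Leaving out single libraries gave 1 to 1 such members, and 0 to 0 in the other counts of members.

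Slfn2 without single libraries ranged from -0.31 to -0.21 for Notch1-titled against control (adjusted p 0.0732 to 0.522, limma), from -0.057 to 0.14 for combined against Zmiz1-titled (-0.057 also with both libraries out), from -0.90 to -0.71 for Zmiz1-titled against control and from -0.57 to -0.45 for combined against Notch1-titled. Other tested values also changed sign. For Notch1-titled against control, Slfn3 was -0.129 to 0.123 without single libraries (the highest without Notch1-titled replicate 3) and 0.123 with both out, and Slfn9 was -0.115 to 0.21 (0.04 without control replicate 3, 0.21 without Notch1-titled replicate 3) and 0.21 with both out. For combined against Zmiz1-titled, Slfn1 was -0.005 under median ratio scaling, -0.003 under quantile normalization, -0.16 with both out, and -0.16 to 0.12 without single libraries. For Zmiz1-titled against control, Slfn4 ranged from -0.014 to 0.08 (-0.003 with both out) and Slfn10-ps from -0.049 to 0.094. Among the described values without single libraries, combined against Notch1-titled ranged from -0.03 to 0.222 for Slfn3, -0.244 to 0.081 for Slfn9, -0.266 to -0.027 for Slfn8 and -0.04 to 0.013 for Slfn5, and Slfn9 for combined against control from -0.095 to 0.01. The cause was not tested.

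Among the lists, quiescence genes called for Notch1-titled against control numbered 1 at a filter of 5 FPKM, 4 under the block, 4 with both out and 2 to 4 without single libraries. For combined against Zmiz1-titled they numbered 6 under the block and 1 to 3, and for Zmiz1-titled against control 1 at a filter of 5 FPKM and 2 to 3. Interferon genes called for Zmiz1-titled against control numbered 1 under median ratio scaling, 1 under the block, 1 with only the groups compared, 1 with robust variances, 2 with both out and 0 to 2 without single libraries. They numbered 0 to 1 for combined against Zmiz1-titled, as did flanking genes. Transfer RNA genes called there numbered 0 under median ratio scaling, 0 with only the groups compared, 0 with robust variances and 0 to 1 without single libraries; for Notch1-titled against control they numbered 1 with both out and 0 to 1.

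Counts over all genes moved most. Genes called for Notch1-titled against control numbered 557, 1059 under the block, 831 with both out and 272 to 989 without single libraries. For combined against Zmiz1-titled they numbered 392, 721 under the block, 155 with only the groups compared, 650 with both out and 184 to 505. For Zmiz1-titled against control they numbered 214, 121 at 5 FPKM, 365 under the block, 49 with only the groups compared, 353 with both out and 74 to 241. For combined against Notch1-titled they numbered 153, 101 at 5 FPKM, 260 under the block, 283 with both out and 75 to 306, and for combined against control 656, 1158 under the block, 1386 with only the groups compared, 1565 with both out and 339 to 1090. Same-numbered libraries of different groups were somewhat more alike than others. Of their pairs 6 of 18 correlated above 0.1 (median 0.043), and of other pairs 4 of 36 (median -0.021). By mean correlation, 9 of 12 libraries were closest to their own number. Whether the number marks a shared batch was not tested, and the main fit left it out. The block changed no call of a member.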
